A study of Homo sapiens with 16 samples.

Results

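The genes described here are 8 chemokine receptor genes, CCR1, CCR6, CCR7, CCR10, CXCR3, CXCR4, CXCR5 and ACKR3. They were taken by symbol from a deposited table of 58051 gene identifiers, of which 28714 were above 0 somewhere in the 16 libraries. RNA was sequenced from P493-6, an immortalised human B cell line that carries a MYC transgene shut off by doxycycline and an oestrogen-dependent form of the viral factor EBNA2. There were 4 groups of 4 libraries. The high MYC groups were kept in DMEM with serum and no further additive, and the medium MYC groups had doxycycline (0.1 µg/mL) and β-estradiol (1 µM) added, beginning 24 h before treatment. Within each MYC level, 1 group then received 100 nM IMP1088, which inhibits the N-myristoyltransferases NMT1 and NMT2, and the other its DMSO vehicle. Treatment lasted 24 h. All libraries come from 1 cell line, and MYC level, doxycycline and estradiol (with EBNA2 activity) cannot be told apart.

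Chemokine receptors are membrane receptors that steer the movement of lymphocytes along gradients of small secreted chemokines. Those described here, other than ACKR3, couple to G proteins of the Gi class. In B cells, CXCR4 holds cells near CXCL12 in the bone marrow and in the dark zone of the germinal centre, CXCR5 draws them to CXCL13 in the follicle, and CCR7 draws them to CCL19 and CCL21 at the edge of the T cell zone. The alpha subunits of Gi are themselves N-myristoylated, as background to the use of an inhibitor of that modification.

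RefSeq promoter windows of GRCh38.p14, each covering 250 bases before to 50 bases after a transcript's start, were found for 5 of the 8 genes, in 9 windows. A window of 4 genes is printed here, because CCR1 and CXCR4 moved in opposite directions with the inhibitor and CXCR3 and CXCR5 were low in all high MYC libraries. Letters are 5′ to 3′ on the strand of the gene, and capitals mark a match to a searched motif on either strand.
CCR1 (chr3:46208264-46208563, minus strand): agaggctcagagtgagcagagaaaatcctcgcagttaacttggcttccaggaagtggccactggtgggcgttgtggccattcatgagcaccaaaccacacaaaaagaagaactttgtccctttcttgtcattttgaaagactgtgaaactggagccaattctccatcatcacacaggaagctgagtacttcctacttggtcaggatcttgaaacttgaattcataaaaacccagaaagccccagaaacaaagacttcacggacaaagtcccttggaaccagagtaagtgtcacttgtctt
CXCR3 (chrX:71618462-71618761, minus strand): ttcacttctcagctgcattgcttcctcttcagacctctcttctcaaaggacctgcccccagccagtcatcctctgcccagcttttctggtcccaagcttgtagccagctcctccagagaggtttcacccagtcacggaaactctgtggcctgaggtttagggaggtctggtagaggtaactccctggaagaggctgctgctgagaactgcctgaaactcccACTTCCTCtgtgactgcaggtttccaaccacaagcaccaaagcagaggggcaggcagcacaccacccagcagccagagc
CXCR4 (chr2:136118100-136118399, minus strand): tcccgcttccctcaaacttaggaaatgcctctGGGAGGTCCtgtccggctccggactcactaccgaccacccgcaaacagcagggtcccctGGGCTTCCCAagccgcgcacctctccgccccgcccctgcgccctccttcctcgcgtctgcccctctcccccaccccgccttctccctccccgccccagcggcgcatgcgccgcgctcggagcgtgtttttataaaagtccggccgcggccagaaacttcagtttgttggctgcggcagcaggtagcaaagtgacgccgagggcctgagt
CXCR5 (chr11:118893142-118893441, plus strand): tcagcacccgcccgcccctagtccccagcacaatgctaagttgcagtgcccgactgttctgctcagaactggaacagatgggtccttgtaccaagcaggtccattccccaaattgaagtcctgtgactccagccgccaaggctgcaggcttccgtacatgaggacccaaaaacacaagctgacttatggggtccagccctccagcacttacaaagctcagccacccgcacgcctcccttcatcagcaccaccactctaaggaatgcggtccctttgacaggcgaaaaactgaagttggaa
The motifs searched on both strands were the MYC E-box CACGTG, the RBPJ core TGGGAA through which EBNA2 acts and the PU.1 ETS core GAGGAAGT. The last was a 9-base form of the NF-kappaB consensus. It reads GGR, any 2 bases, then YYCC, where R is A or G and Y is C or T. These 4 motifs were present, in the order named, in 7.26%, 24%, 2.59% and 32.1% of all 35116 windows. The CXCR4 window held an NF-kappaB match starting 218 bases before the start site and a second one starting 159 bases before it, which overlaps an RBPJ core. A second CXCR4 window (chr2:136116186-136116485) also held an RBPJ core. Of the 3 windows of CCR6, 1 (chr6:167122503-167122802) held 2 RBPJ cores. The CXCR3 window held a PU.1 core, and those of CCR1 and CXCR5 held none of the 4 motifs. The E-box was in none of the 9 windows. These matches describe letters, not binding.

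The values are normalized counts, which are reads per gene divided by the library's size factor. Whole reads recovered from them totalled 8755296 to 13858534 per library. MYC itself followed the labels, with means of 31649 and 47542 normalized counts at high MYC (DMSO and IMP1088) and 959 and 1382 at medium MYC. The 10 B cell markers were all present, with summed values of 39524 to 76370 per library, lowest in high MYC cells with IMP1088 and highest in medium MYC cells with DMSO. The summed T cell, myeloid, and fibroblast and epithelial markers ran from 57.2 to 249, 108 to 291 and 64.8 to 238. Those 3 sums were higher at medium MYC, each mostly through 1 gene. Means with DMSO at high and medium MYC were 27.8 and 132 for TRAC, 78.7 and 221 for ITGAM, and 7.09 and 164 for COL1A1. CD3E was also higher (37.3 and 59.6) and LYZ was level (47.8 and 49.4). The means of CD3G (28.7 and 21.6) and EPCAM (62.1 and 13.1) went the other way. CD3D, CD8A, FCGR3A, MPO, COL3A1, DCN, KRT8 and KRT18 had at most 3 reads in every library. The part of these markers in the receptor differences was not tested, and in bulk RNA fewer cells of a type and less RNA per cell cannot be told apart. The labels do not say that the 4 libraries of a group came from separate cultures, so p-values measure only the spread between these libraries, which may be technical.

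The first question the design poses is what the inhibitor did to these receptors at each MYC level. CCR1 fell 3.40-fold at high MYC and 3.06-fold at medium MYC, and CXCR4 rose at both levels. At high MYC, 4 of the 8 genes changed, CXCR4 and CCR7 upwards and CCR1 and CCR6 downwards, where limma called 26.8% of all 13765 tested genes at an adjusted p under 0.05 (10.5% higher and 16.3% lower). At medium MYC, 3 of the 8 changed, CXCR4 upwards and CCR1 and CXCR3 downwards, where 26.3% of all tested genes were called (11.7% higher and 14.6% lower). The median change over the 8 genes at medium MYC was 0.17 on the log2 scale, against -0.01 over all tested genes. At high MYC the value of CCR10, -0.27, was the median of the 7 genes other than ACKR3, which had 2 reads or fewer in each library, against -0.02 over all genes. With quantile normalization the calls over all genes at high MYC split into 1727 higher and 1770 lower, against 1442 and 2247. At medium MYC equal library totals gave 1962 higher and 1659 lower and quantile normalization 1963 and 1876, against 1606 and 2012. The number of these 8 genes called moved with the fit. Fitting only the 2 high MYC groups called 2 of them, and fitting only the 2 medium MYC groups, edgeR and DESeq2 each called 5 at medium MYC.

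**Figure D1:**
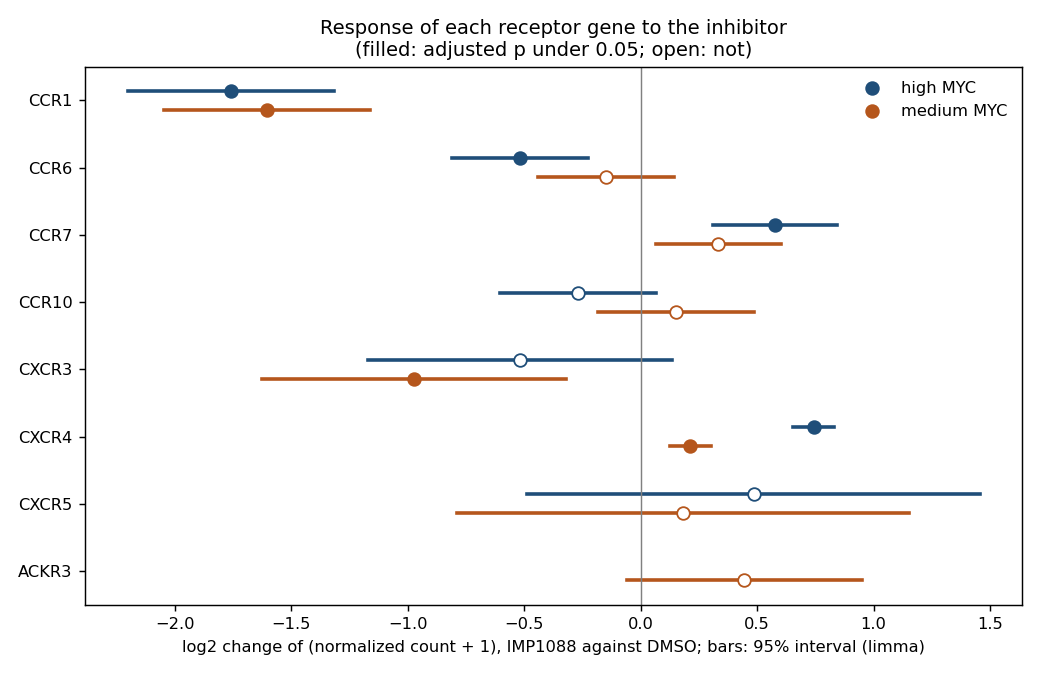
Change of each receptor gene with IMP1088 against DMSO on the log2(normalized count + 1) scale (x axis), at high MYC (blue) and medium MYC (orange). Points are limma estimates, bars their 95% intervals, filled points passed an adjusted p under 0.05, and ACKR3 at high MYC is left out because it was at the detection floor. CCR1 lies at -1.76 and -1.60, and CXCR4 at 0.74 and 0.21.

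The second question is how the receptors differed with MYC level. All 8 were called higher at medium than at high MYC, among DMSO libraries and under IMP1088 alike, where 76.2% and 77.5% of all tested genes were called (38.9% and 39.7% higher). CXCR3, CXCR5 and ACKR3 had a mean under 10 normalized counts at high MYC and entered the test only through medium MYC, so the count of 8 is a description. Among DMSO libraries, the sizes for the 7 genes other than ACKR3 ranged from 1.32-fold for CCR6 to 769-fold for CCR7. The comparisons of inhibitor and of MYC level share libraries, so their values are given side by side and not related to each other.

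**Figure D2:**
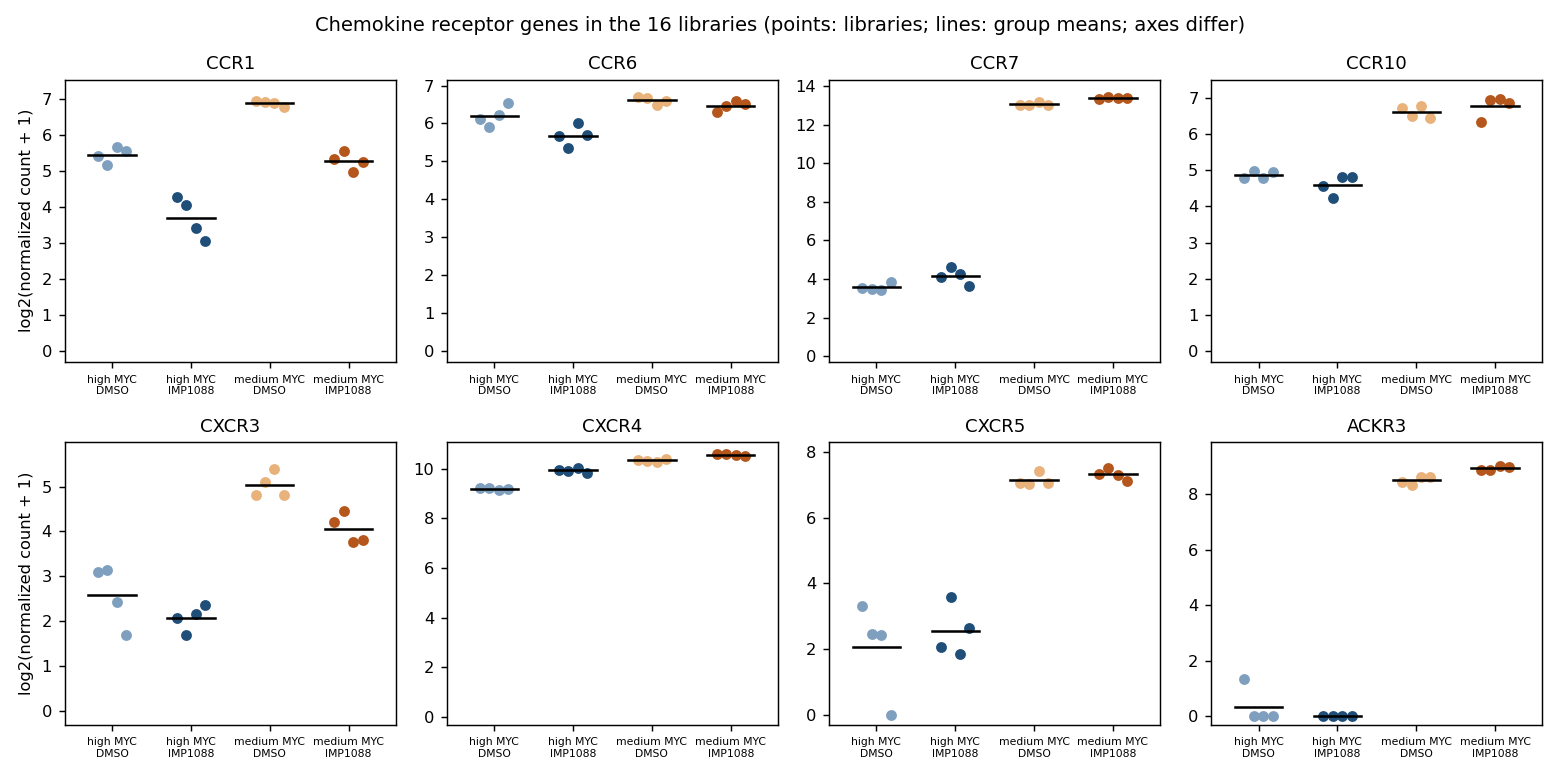
Values of the 8 genes in the 16 libraries as log2(normalized count + 1) on the y axis, with the 4 groups on the x axis. Points are libraries, lines are means of the plotted values, and each panel has its own scale. CCR7, CXCR5 and ACKR3 sit far apart between MYC levels, and CCR1 sits lower with IMP1088 at both levels.

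CCR1 is an inflammatory receptor for CCL3 and CCL5 (ENSG00000163823, GRCh38 chromosome 3, 46201709 to 46208396, minus strand). At high MYC it stood at 42.2, 34.8, 49.7 and 45.8 normalized counts with DMSO and at 18.3, 15.5, 9.60 and 7.28 with IMP1088. At medium MYC it stood at 122, 119, 117 and 110 with DMSO and at 39.6, 45.7, 30.3 and 37.3 with IMP1088. Every IMP1088 library lay below every DMSO library of its MYC level. The means fell from 43.1 ± 6.33 to 12.7 ± 5.10 (SD, n = 4) at high MYC, or by 1.76 on the log2 scale (SE 0.21, adjusted p = 1.98e-06 in limma), and from 117 ± 5.13 to 38.2 ± 6.37 at medium MYC, or by 1.60 (SE 0.21, adjusted p = 6.03e-06). The difference between these responses was -0.16 with a 95% interval from -0.78 to 0.47 (adjusted p = 0.832), so a difference of either sign within that interval was not resolved. Its sign turned to 0.06 without replicate 4 of the high MYC IMP1088 group, the lowest library, and to 0.16 with a pseudocount of 10. CCR1 was 2.71-fold higher at medium than at high MYC with DMSO (log2 change 1.43, SE 0.21, adjusted p = 2.96e-06) and 3.02-fold higher with IMP1088. Medium MYC cells with IMP1088 thus held 38.2 normalized counts of CCR1, beside 43.1 in high MYC cells with DMSO, and the ranges of these groups overlapped.

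CCR1 lies in a cluster of receptor genes on chromosome 3, and the nearest well-expressed receptor there, CCR2, is 145 kb away. CCR2, the monocyte receptor for CCL2, stood at 85.1, 88.7, 89.4 and 114 normalized counts in high MYC cells with DMSO and at 39.8, 28.8, 30.5 and 44.7 with IMP1088. In medium MYC cells CCR2 stood at 102, 104, 87.5 and 100 with DMSO and at 75.7, 69.5, 60.6 and 65.5 with IMP1088. CCR2 fell by 1.38 on the log2 scale at high MYC (adjusted p = 1.79e-07) and fell by 0.53 at medium MYC (adjusted p = 0.00650), and the difference of -0.85 between the responses was called (adjusted p = 0.00794). Between MYC levels, CCR2 was not called with DMSO (log2 change 0.07, adjusted p = 0.661) and was higher at medium MYC with IMP1088 (log2 change 0.92, adjusted p = 4.30e-06). CCR3, whose gene spans CCR1 on the other strand without sharing exon bases, had at most 10 reads in a library. CCR9, CXCR6, XCR1 and CCRL2, also in the cluster, had group means of at most 6.35 normalized counts.

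CXCR3 is the receptor for the interferon-induced chemokines CXCL9, CXCL10 and CXCL11 (ENSG00000186810, chromosome X, 71615916 to 71618517, minus strand). At high MYC it was near the limit of detection, with 2 to 10 reads in each DMSO library and 2 to 4 in each IMP1088 library. At medium MYC it stood at 27.1, 33.4, 41.1 and 27.1 normalized counts with DMSO and at 17.5, 20.9, 12.5 and 13.1 with IMP1088, and these groups did not overlap. The fall at medium MYC was -0.97 on the log2 scale (SE 0.31, adjusted p = 0.0249), or 2.01-fold. This call is fragile. It was lost without medium MYC DMSO replicate 2 or 3 or IMP1088 replicate 3 or 4 (adjusted p from 0.0567 to 0.0830), with a pseudocount of 0.1 (0.0519) and with no filter (0.0808). At high MYC the change of -0.52 was not called (adjusted p = 0.244), although it reached -0.82 (adjusted p = 0.0457) without DMSO replicate 4, which had 2 reads. The difference between the responses was 0.45, with an interval from -0.47 to 1.38. CXCR3 was 5.84-fold higher at medium than at high MYC with DMSO (log2 change 2.44), which is a description, since it passed the filter only through medium MYC.

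CXCR4, the receptor for CXCL12 (ENSG00000121966, chromosome 2, 136114349 to 136118165, minus strand), was the only one of the 8 with a called difference in response between MYC levels. It stood at 599, 591, 557 and 585 normalized counts in high MYC cells with DMSO and at 983, 951, 1054 and 919 with IMP1088. In medium MYC cells it stood at 1304, 1274, 1246 and 1349 with DMSO and at 1534, 1533, 1486 and 1446 with IMP1088. The 4 groups did not overlap. CXCR4 rose from a mean of 583 ± 18.0 to 977 ± 57.9 at high MYC (SD, n = 4, log2 change 0.74, SE 0.04, adjusted p = 2.80e-11) and from 1293 ± 44.0 to 1500 ± 42.3 at medium MYC (log2 change 0.21, SE 0.04, adjusted p = 5.00e-04). The difference between the responses was 0.53 (SE 0.06, 95% interval from 0.41 to 0.65, adjusted p = 2.84e-06), where 8.63% of all tested genes were called. CXCR4 was 2.22-fold higher at medium than at high MYC with DMSO and 1.54-fold higher with IMP1088.

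CCR7, which guides B cells towards T cells (ENSG00000126353, chromosome 17, 40553769 to 40565472, minus strand), showed the widest difference between MYC levels among the genes with reads in every library. At high MYC it stood at 10.5, 10.1, 9.93 and 13.4 normalized counts with DMSO and at 16.1, 23.3, 18.3 and 11.4 with IMP1088. In medium MYC cells it stood at 8133, 8263, 9062 and 8370 with DMSO and at 10319, 10972, 10800 and 10529 with IMP1088. CCR7 thus had 9 to 21 reads in a high MYC library and 7797 to 11045 in a medium MYC library. Its mean was 769-fold higher at medium than at high MYC with DMSO (log2 change 9.47) and 616-fold higher with IMP1088 (log2 change 9.23, SE 0.13, adjusted p = 1.61e-23).

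With the inhibitor, CCR7 was 1.57-fold higher at high MYC (log2 change 0.58, SE 0.13, adjusted p = 0.00178), although the groups overlapped and the call was lost in a fit of the 2 groups alone (adjusted p = 0.0910), in edgeR (0.0573) and in DESeq2 (0.0721). At medium MYC its groups did not overlap and the mean was 1.26-fold higher, yet the log2 change of 0.33 (SE 0.13) had an adjusted p of 0.0600 with the spread pooled over all 16 libraries. In a fit of the 2 medium MYC groups alone the same change had an adjusted p of 3.84e-06, and without high MYC DMSO replicate 4, IMP1088 replicate 2 or IMP1088 replicate 4 it was 0.0454, 0.0182 or 0.00797. The responses at the 2 levels differed by 0.24, with an interval from -0.13 to 0.62.

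CXCR5, the follicle receptor for CXCL13 (ENSG00000160683, chromosome 11, 118883766 to 118897799, plus strand), was nearly absent at high MYC. It had 12, 4, 4 and 0 reads in the DMSO libraries and 3, 10, 3 and 5 in the IMP1088 libraries. At medium MYC it stood at 131, 130, 170 and 134 normalized counts with DMSO and at 162, 183, 158 and 138 with IMP1088. The mean was 31.5-fold higher at medium than at high MYC with DMSO (log2 change 5.09) and 28.9-fold higher with IMP1088, also as a description. No change with the inhibitor was called at medium MYC, where the log2 change of 0.18 had an interval from -0.79 to 1.15. That interval rests on the spread pooled over all 16 libraries, including the high MYC libraries with few reads. The medium MYC groups themselves stood at 141 ± 19.1 with DMSO and 160 ± 18.3 with IMP1088 (SD, n = 4). At high MYC the change of 0.49 (adjusted p = 0.494) turned to -0.20 without DMSO replicate 4, the library with 0 reads. Of the 4431 exon bases of CXCR5, 3925 overlap BCL9L on the other strand, and whether the reads were counted by strand is not given in the sources used here. BCL9L had means of 610 and 1337 normalized counts with DMSO at high and medium MYC, a log2 change of 1.13. With IMP1088 at medium MYC, BCL9L fell by 0.41. Its part in the CXCR5 values was not tested.

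ACKR3 binds CXCL11 and CXCL12 without signalling through G proteins and removes them from the surroundings (ENSG00000144476, chromosome 2, 236567787 to 236582358, plus strand). At high MYC it had 2 reads in DMSO replicate 1 and 0 in the other 7 libraries. Medium MYC cells held 342, 318, 392 and 390 normalized counts with DMSO and 467, 472, 515 and 504 with IMP1088. The DMSO libraries at medium MYC were 726-fold higher than those at high MYC (95% exact Clopper-Pearson interval of the ratio from 201 to 6002, from 2 reads against 1622). The IMP1088 libraries were at least 643.5-fold higher, set against a floor of 3 reads over the group. These limits cover counting error only. Within medium MYC, all 4 IMP1088 libraries lay above all 4 DMSO libraries, and the mean was 1.36-fold higher (360 ± 36.7 and 490 ± 23.6, SD, n = 4). The log2 change of 0.45 (SE 0.24) had an adjusted p of 0.193 with the spread pooled over all libraries, 1.65e-04 in a fit of the 2 medium MYC groups alone and 0.0456 without high MYC DMSO replicate 1. No size is given for ACKR3 with the inhibitor at high MYC.

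CCR6, the receptor for CCL20 that marks B cells bound for mucosal sites and memory (ENSG00000112486, chromosome 6, 167111807 to 167139696, plus strand), changed least with MYC level among DMSO libraries. It stood at 68.5, 59.5, 73.9 and 91.6 normalized counts in high MYC cells with DMSO and at 49.5, 39.9, 63.7 and 50.9 with IMP1088. At medium MYC it stood at 102, 100.2, 88.4 and 96.0 with DMSO and at 78.1, 86.4, 95 and 89.7 with IMP1088. Both pairs of groups overlapped. CCR6 fell at high MYC by 0.52 on the log2 scale (SE 0.14, adjusted p = 0.00812), with an adjusted p of 0.0534 in a fit of the high MYC groups alone. At medium MYC the change of -0.15 was not called, and the difference between the responses was -0.37 with an interval from -0.78 to 0.04. The difference with MYC level among DMSO libraries was 0.41 (adjusted p = 0.0120), and it was not called with quantile normalization (0.26, adjusted p = 0.0898) or without high MYC DMSO replicate 2 (0.31, adjusted p = 0.0548). Exons of CCR6 share 3008 bases with Z94721.2 on the same strand, a gene of 31.8 to 43.3 normalized counts by group mean.

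CCR10, the receptor for CCL27 and CCL28 found on plasma cells that home to skin and mucosa (ENSG00000184451, chromosome 17, 42678889 to 42683917, minus strand), did not respond to the inhibitor at a called level. It ranged from 26.4 to 30.3 normalized counts with DMSO and from 17.7 to 27.1 with IMP1088 at high MYC, and from 87.0 to 109 and from 79.2 to 124 at medium MYC. The log2 changes were -0.27 (interval from -0.60 to 0.07) and 0.15 (interval from -0.18 to 0.49). CCR10 was 3.46-fold higher at medium than at high MYC with DMSO (log2 change 1.75, SE 0.16, adjusted p = 2.04e-09) and 4.66-fold higher with IMP1088. It shares 820 exon bases with CNTNAP1 and AC100793.2 on the other strand. CNTNAP1 was likewise higher at medium than at high MYC among DMSO libraries, with a log2 change of 1.86, so its part in the CCR10 values cannot be told apart.

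Compared per kb of merged exons, the order of the 8 receptors changed with MYC level. At high MYC with DMSO, CXCR4 led at 262 ± 8.08 normalized counts per kb, followed by CCR6 at 16.9 ± 3.11 and CCR1 at 15.8 ± 2.32, whose ranges overlapped, and then CCR10 at 10.8 ± 0.844. CCR7 (4.39), CXCR3 (2.95), CXCR5 (1.0) and ACKR3 (0.167) followed, each with a range that overlapped the next. With IMP1088 at high MYC, CXCR4 stood at 439 ± 26.1 and CCR1 dropped from the third to the fifth place at 4.64 ± 1.87, with a range that overlapped that of CCR7 above it. At medium MYC with DMSO, CCR7 led at 3372 ± 165, followed by CXCR4 at 582 ± 19.8 and ACKR3 at 160 ± 16.2, all separate. CCR1 (42.9), CCR10 (37.4) and CXCR5 (31.9) followed with ranges that overlapped between neighbours, then CCR6 (22.3) and CXCR3 (17.2), whose ranges overlapped. Per kb of the longest transcript instead, the mean of CCR10 in this group was 50.4, above that of CCR1 at 42.9. At high MYC with DMSO it was then 14.6, beside 15.8 for CCR1. With IMP1088 at medium MYC, CCR1 fell to the place before the last, at 14 ± 2.33, with a range that overlapped that of CXCR3, and CCR7, CXCR4 and ACKR3 kept the first 3 places.

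Among 23 chemokine receptor genes summed per kb, CXCR4 made up 73.9% ± 1.46 at high MYC with DMSO and 88.4% ± 0.380 with IMP1088, and the libraries did not overlap. At medium MYC, CCR7 made up 78.1% ± 0.845 with DMSO and 80.1% ± 0.316 with IMP1088, and CXCR4 13.5% and 12.7%. The 8 genes together made up 88.6% at high MYC with DMSO, where CCR2 held a further 7.12%, and 98.8% at medium MYC with DMSO. The summed level of the 23 genes was 354 ± 9.39 and 497 ± 27.9 normalized counts per kb at high MYC (DMSO and IMP1088) and 4315 ± 172 and 5305 ± 128 at medium MYC. Of the 15 receptors outside the 8, only CCR2 and CX3CR1 reached the mean of 10 over the 16 libraries needed for a test. CX3CR1, the fractalkine receptor, was not called in any of the 5 comparisons. Among the untested receptors, ACKR4 was lower at medium MYC, with means of 12.7 (DMSO) and 17.4 (IMP1088) at high MYC and 2.54 and 5.17 at medium MYC. ACKR1 and ACKR2 were higher there, at 0 and 1.03 with DMSO at high MYC and 11.8 and 11.9 at medium MYC.

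**Figure D3:**
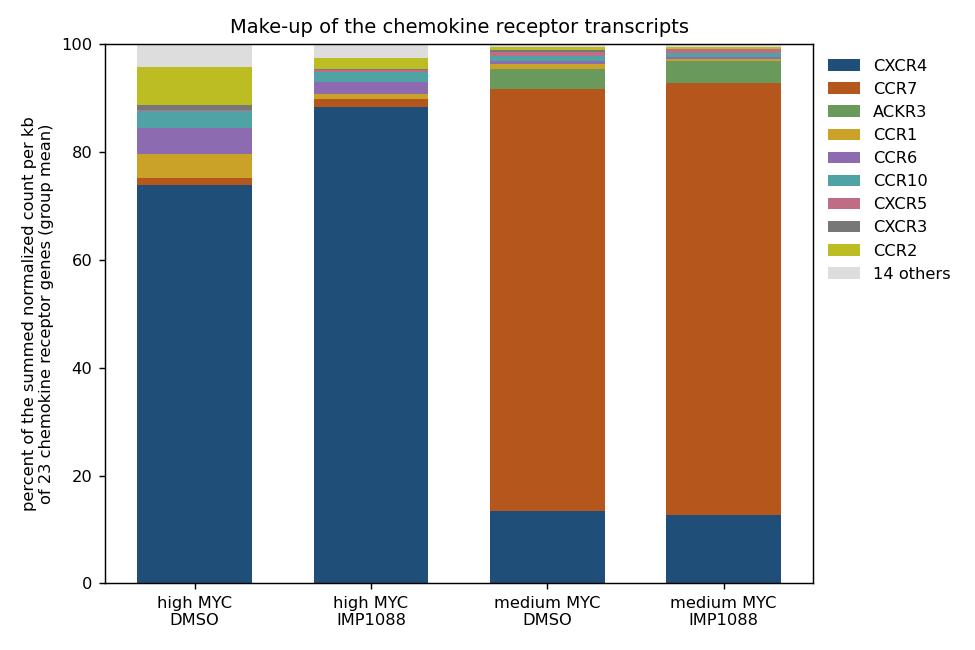
Share of each receptor gene in the summed normalized count per kb of 23 chemokine receptor genes (y axis, percent, mean of 4 libraries) in the 4 groups (x axis). CXCR4 fills 73.9% and 88.4% of the high MYC bars, and CCR7 78.1% and 80.1% of the medium MYC bars.

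Of 17 genes for ligands of these receptors, 9 had a value above 0 and 4 could be tested, CCL3, CCL5, CXCL9 and CXCL10. All 4 were higher at medium MYC, with DMSO and with IMP1088, as were 38.9% and 39.7% of all tested genes. CCL5, CXCL9 and CXCL10 had a mean under 10 normalized counts at high MYC. They entered the test only through medium MYC, so the count of 4 is a description. CCL3 and CCL5, ligands of CCR1, had means of 14.4 and 3.92 normalized counts at high MYC with DMSO and 312 and 76.3 at medium MYC. CXCL9 and CXCL10, ligands of CXCR3, had means of 0.464 and 6.62 at high MYC and 435 and 407 at medium MYC. Of the 4, CXCL10 was called with the inhibitor, at medium MYC (log2 change 0.52, SE 0.19, adjusted p = 0.0473 in limma). At high MYC the log2 change of CXCL10 was 0.495 (adjusted p = 0.0574), and its responses differed by -0.02 (adjusted p = 0.978). CCL3, CCL5 and CXCL9 at medium MYC had means of 395, 99.9 and 533 with IMP1088, against 312, 76.3 and 435 with DMSO. These changes were not called with the spread pooled over all 16 libraries. CXCL11, another ligand of CXCR3, was below the filter and not tested. At medium MYC it had means of 10.8 ± 1.66 with DMSO and 6.59 ± 1.69 with IMP1088 (SD), and it was 0 at high MYC. CCL21 and CXCL13 were listed at 0 in every library, and CXCL12, CCL19 and CCL20 had group means of at most 0.552.

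Of the 8 receptors, those other than ACKR3 signal through Gi, whose alpha subunits GNAI1, GNAI2 and GNAI3 are N-myristoylated proteins. GNAI2 stood at 1920, 1926, 1821 and 1835 normalized counts in high MYC cells with DMSO and at 1336, 1349, 1355 and 1380 with IMP1088. Its transcript fell by 0.47 on the log2 scale at high MYC (SE 0.04, adjusted p = 3.52e-09) and by 0.34 at medium MYC (adjusted p = 2.61e-07), without overlap at either level. GNAI3 was not called at high MYC (log2 change -0.04, adjusted p = 0.565) and fell by 0.22 at medium MYC (adjusted p = 3.74e-04). GNAI1 was listed at 0 in every library. GNAI2 was higher at medium than at high MYC with DMSO (log2 change 0.95). Of the 10 tested G protein subunit genes, 1 rose and 5 fell at each MYC level, with medians of -0.16 and -0.14. Over all tested genes 10.5% rose and 16.3% fell at high MYC, and 11.7% and 14.6% at medium MYC. GNG2, a gamma subunit, fell by 0.92 and 0.60 on the log2 scale. The gene that rose was not the same at both levels. At high MYC it was the beta subunit GNB4 (0.33), which was not called at medium MYC (-0.13). At medium MYC it was the gamma subunit GNG7 (0.21), which fell by 0.17 at high MYC.

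**Figure D4:**
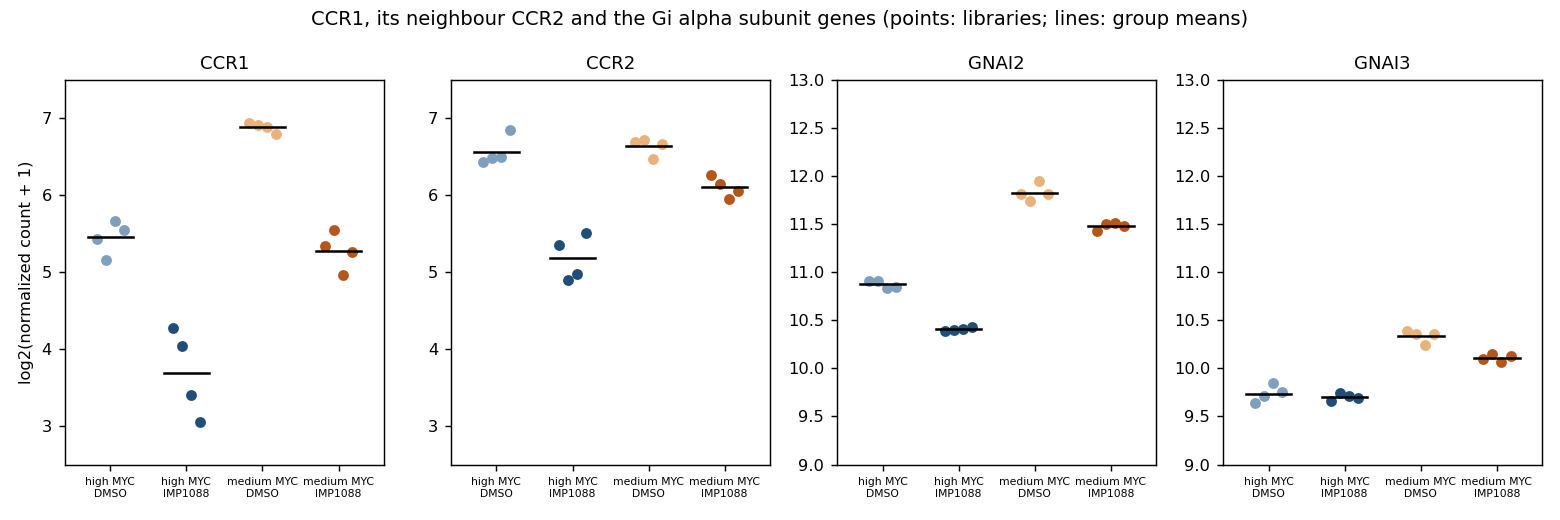
CCR1, CCR2, GNAI2 and GNAI3 in the 16 libraries as log2(normalized count + 1) on the y axis, which does not start at 0, with the 4 groups on the x axis. Points are libraries and lines are means of the plotted values. CCR1, CCR2 and GNAI2 lie lower with IMP1088 at both MYC levels, and GNAI3 changed by -0.04 at high MYC.

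Of 13 tested genes for receptor kinases, arrestins and RGS proteins, which shut the receptors or their G proteins off, none rose and 6 fell at high MYC, and 2 rose and 7 fell at medium MYC, where 16.3% and 14.6% of all tested genes fell. GRK6, a kinase that phosphorylates active receptors, fell by 0.92 and 0.64 on the log2 scale (adjusted p = 1.41e-09 and 2.19e-07). RGS14, which speeds the return of Gi to rest, fell by 0.83 and 0.82 (adjusted p = 9.79e-10 and 7.44e-10). RGS16 rose by 0.33 at medium MYC. Of the 21 tested genes for effectors of cell movement, 1 rose and 14 fell at high MYC and 12 fell at medium MYC, with medians of -0.23 and -0.10, where the same 16.3% and 14.6% of all tested genes fell. RAC2, a haematopoietic GTPase that drives actin assembly, fell by 0.89 and 0.40, and the actin regulator CORO1A fell by 0.43 and 0.97. RHOH rose by 0.40 at high MYC. Among DMSO libraries, 18 of the 21 were higher at medium than at high MYC and 2 lower, where 38.9% of all tested genes were higher and 76.2% were called in either direction.

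Of 9 tested genes for other receptors that position B cells, 2 rose and 6 fell with the inhibitor at high MYC (all tested genes: 10.5% and 16.3%), and 2 rose and 2 fell at medium MYC (11.7% and 14.6%). S1PR4 rose by 0.31 and 0.25 on the log2 scale, and LPAR5, a receptor for lysophosphatidic acid, fell by 0.65 and 0.77. Among DMSO libraries, 6 were higher at medium MYC, where 38.9% of all tested genes were, and 3 lower. GPR183, the oxysterol receptor that guides B cells to the outer follicle, was higher by 2.21 and P2RY10 by 2.20, whereas P2RY8, a receptor that holds B cells in the germinal centre, had a log2 change of -1.03. Of 6 tested genes that process the receptors, 1 rose and 1 fell with the inhibitor at high MYC, and 1 rose and 2 fell at medium MYC. ITCH, a ubiquitin ligase that acts on CXCR4, had log2 changes of 0.13 (adjusted p = 0.0671) at high MYC and 0.14 (adjusted p = 0.0461) at medium MYC.

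The genes whose pattern over the 16 libraries was most like that of each receptor were ranked by the Pearson correlation of log2(normalized count + 1), which is a description, since the libraries share 4 group means and many genes follow MYC level. CCR7 was closest to PTGER4 (r = 0.999), CD44 and GPR183, and 1672 genes had r above 0.95 with it. ACKR3 was closest to GBP4 (r = 0.999), SLAMF6 and SORL1, with 1755 genes above 0.95, and CCR10 to SLC37A1, USB1 and GBF1, with 1254. CXCR5 was closest to ZNF772, CLEC4A and HIPK2, with 436 genes above 0.95, and CXCR3 to SH3D21, ENSG00000272405 and ANO7, with 152. Fewer genes were above 0.95 with CCR1 and CXCR4. This count does not show a rarer pattern, since counting noise can also lower r, and CCR1 had 7 to 139 reads in a library. CCR1 was closest to RNF144A (r = 0.9754), RASSF2 and RAC1, with 17 genes above 0.95, and CXCR4 to ZNF264 (r = 0.982), ZNF134 and SON, with 20. CCR6 had no gene above 0.95, and its closest were MIATNB (r = 0.923), NMI and ZSWIM3.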

How the data were processed

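RNA of 16 P493-6 libraries was sequenced, in 4 groups of 4. The authors deposited a signal per gene, named normalized counts, for 58051 Ensembl identifiers. RSEM 1.2.31, STAR 2.5.2a, DESeq2 1.16.1 and build GRCh38 are named in the submitters' processing notes. The gene annotation and the use of strand in counting are not given in the sources used here. Each deposited value was a whole multiple of 1 step per library (100% of values whole within 0.01 reads), which gave back whole reads and size factors from 0.858 to 1.33.

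Values were tested with limma 3.58.1 in R 4.3.3 on log2(value + 1) over 13765 genes (mean value 10 or more) in 1 fit of 4 group means with a mean trend, two-sided, with Benjamini-Hochberg adjustment over all tested genes and a threshold of 0.05. A fold change on that scale understates the change of low genes. The "-fold" values are ratios of group means, except for ACKR3 between MYC levels, where they are ratios of summed reads scaled by size factors or bounds at a floor of 3 reads. All 8 receptor genes passed the filter, so no separate test of genes under it was needed. Positions and exon lengths are from GENCODE release 29 (57447 identifiers matched), symbols from a table of gene names (56948 matched) and promoter windows from RefSeq. The receptors, gene lists and markers were chosen with earlier results of these data known. In each comparison and list, the genes named are up to 2 higher and 2 lower calls with the largest change and a mean of at least 50, with the Gi alpha genes and MYC always; of these some are not printed. CX3CR1, ACKR1, ACKR2, ACKR4, CCL3, CCL5, CXCL11, GNB4 at medium MYC and GNG7 at high MYC were chosen for naming after seeing their values. So were RGS14 at high MYC, CORO1A at high MYC, ITCH, the single marker genes and genes at or near 0.

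Alternatives were other scalings (equal totals, quantile, TMM), pseudocounts of 0.1 and 10, no filter or a mean of at least 50, no mean trend, only the groups compared, a replicate block, a GC correction, each library left out, and, on whole reads, edgeR 4.0.16 and DESeq2 1.42.0. The fit was tested on simulated data.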

Additional observations from a re-analysis of the deposited data

Results flagged for a closer look

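The response of CXCR4 to IMP1088 differed between MYC levels, by 0.529 on the log2 scale (limma adjusted p = 2.84e-06). At both levels all 4 IMP1088 libraries lay above all 4 DMSO libraries. Among the 31 sets of 4 libraries checked for a library far from the others, 2 held one. Chance alone flags about 1 in 20 sets where values are normally spread, which does not hold for sets at the floor. CXCR5 in medium MYC cells with DMSO was highest in replicate 3, at 170 normalized counts, with the other 3 libraries between 130 and 134. ACKR3 in high MYC cells with DMSO was highest in replicate 1, at 1.51 normalized counts, which stands for 2 reads, with the other 3 libraries at 0. Any set with 3 libraries at 0 and 1 above 0 is flagged, so this flag is fixed by the floor.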

How the results depend on the processing

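Of 38 results on the 8 genes, 28 kept their direction and their side of the threshold under each alternative run for them and with each library left out. CXCR3 was not tested at a filter of 50, and the differences in response have no fit of the compared groups alone. The exceptions follow as log2 changes, with the cause not tested. Fitting only the groups compared gave -0.52 for CCR6 and 0.58 for CCR7 at high MYC (2 genes called), and 0.33 for CCR7 and 0.45 for ACKR3 at medium MYC (5 genes called). At high MYC, CCR7 was not called in edgeR (0.66, adjusted p = 0.0573) or DESeq2 (0.66, adjusted p = 0.0721). At medium MYC, CCR7 was called with equal library totals (0.36), quantile normalization (0.34), a pseudocount of 10 (0.33), a filter at 50 (0.33), edgeR (0.34), DESeq2 (0.34) and the GC correction without and with the replicate block (0.37 in both). ACKR3 was called there with a pseudocount of 10 (0.44), in edgeR (0.45) and in DESeq2 (0.44), so 5 of the 8 genes were called in each of these. CXCR3 at medium MYC was not called with a pseudocount of 0.1 (-1.01) or no filter (-0.97), nor CCR6 between MYC levels with quantile normalization (0.26). The uncalled difference in response changed sign with a pseudocount of 10 for CCR1 (0.16) and CXCR5 (-0.064), and for CXCR5 also in edgeR (-0.077) and DESeq2 (-0.064).

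With each library left out in turn, 8 results changed side or sign. At medium MYC these were CCR7 (0.32 to 0.37), CXCR3 (-1.10 to -0.85) and ACKR3 (0.39 to 0.49), and at high MYC CXCR3 (-0.82 to -0.33) and CXCR5 (-0.20 to 0.91). The others were the difference in response of CCR1 (-0.35 to 0.059) and CXCR5 (-0.38 to 0.73) and the difference of CCR6 between MYC levels among DMSO libraries (0.31 to 0.52).

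Replicate numbers did not pair the libraries. The mean correlation of same-numbered libraries' deviations ran from -0.07 to 0.02 over the 4 pairs of groups, and at most 2 of 8 libraries correlated best with their own number. With the replicate block, CXCR4 changed by 0.74 at high MYC (adjusted p = 2.35e-09) and the block changed no call on these 8 genes. Using the longest transcript in place of merged exons moved 13 of 32 levels per kb by more than 1 SD, and put CCR10 above CCR1 at medium MYC with DMSO. Depth limits CXCR3, CXCR5, ACKR3 and CCR7 at high MYC, where a library held 0 to 21 reads of each.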
